A study of Mus musculus with 8 samples.

Results

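The genes described here encode the subunits of the 5 enzyme complexes of oxidative phosphorylation. They were chosen by symbol: Nduf genes of complex I, the 4 Sdh genes of complex II, Uqcr genes of complex III, Cox4 to Cox8 genes of complex IV, Atp5 genes of complex V, and the protein genes of the mitochondrial genome. The rule took 110 of the 55450 genes measured, namely 94 nuclear genes, 13 mitochondrial genes, and the 3 muscle isoforms Cox6a2, Cox7a1 and Cox8b, which were kept apart. RNA was taken from tumours of MOC1, a single mouse oral squamous carcinoma line, grown as flank implants in C57BL/6 mice. All mice received an antibody against PD-1, a checkpoint receptor of T cells, over 32 days, so no tumour was free of checkpoint blockade. Antisense oligonucleotides (ASOs) were given beside it: 3 tumours had control ASOs, and 5 had ASOs against Smyd3, a lysine methyltransferase. Of these 5 tumours, the labels mark numbers 1 and 3 as responders and leave number 2 without a mark, and 2 tumours are marked as non-responders without a replicate number, so that their numbers 1 and 2 are names only. The marks describe outcome and were not assigned. Each title also carries a number of its own in parentheses, whose meaning the labels do not give. The labels do not say whether each tumour came from a different mouse, so the p-values measure the spread between these libraries.

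Complexes I to IV pass electrons from NADH and succinate to oxygen and, except for complex II, pump protons across the inner mitochondrial membrane, and complex V uses the returning protons to make ATP. All complexes but II combine subunits from nuclear genes with a small core from the mitochondrial genome. Complex IV, cytochrome c oxidase, is built with alternative nuclear subunits in some tissues: the products of Cox6a2, Cox7a1 and Cox8b take the places of Cox6a1, Cox7a2 and Cox8a in skeletal and heart muscle, and Cox7a1 and Cox8b are also transcribed in brown fat.

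Since the results turn on these isoforms, the upstream flanks of Cox7a1 and Cox8b are shown, taken from RefSeq (GRCm38.p6). Of 10 symbols of isoforms and partners looked up, 6 were matched. Both lines run 5′ to 3′ on the strand of the gene and hold no exon bases. Cox7a1 is from chr7:30183921-30184143 (plus strand, 223 bases) and Cox8b from chr7:140900447-140900696 (minus strand, 250 bases). Capitals mark the E-box letters CANNTG, the core bound by myogenic and many other basic helix-loop-helix factors.
Cox7a1: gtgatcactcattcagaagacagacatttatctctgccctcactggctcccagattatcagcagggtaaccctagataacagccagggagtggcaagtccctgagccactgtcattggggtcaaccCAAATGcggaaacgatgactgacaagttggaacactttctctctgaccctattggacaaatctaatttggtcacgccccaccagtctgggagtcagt
Cox8b: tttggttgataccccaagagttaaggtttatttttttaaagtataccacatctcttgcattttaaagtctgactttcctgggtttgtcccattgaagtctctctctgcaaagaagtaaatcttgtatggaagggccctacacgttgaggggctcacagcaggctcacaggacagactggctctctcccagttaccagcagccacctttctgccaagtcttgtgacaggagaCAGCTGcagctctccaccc
Each flank held 1 match, and so did the flanks of the common partners Cox7a2 and Cox8a. On either strand, CANNTG was found in 66.22% of the 32851 promoter windows of 250 bases, TATAAA in 12.37%, CCGGAAG in 6.907% and the MEF2 motif in 2.919%, and the latter 3 were in none of the 4 flanks. CANNTG reads the same on both strands and overlapped no other motif searched.

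Libraries held 22103853 to 27258700 expected counts. In edgeR, 16911 genes were tested, and levels are given in CPM, counts scaled to the TMM-normalised library size. The 10 genes of keratinocytes and squamous carcinoma summed to 21389 to 44584 CPM, so each tumour carried the transcripts of its labelled cell type. Smyd3 itself was at 10.6 to 11.9 CPM in controls and 4.38 to 9.26 CPM in Smyd3 ASO tumours, lower in 5 of 5 (log2 fold change −0.80, SE 0.29, edgeR FDR 0.246). Of the 110 genes, 97 passed the filter on low counts: 81 nuclear genes, all 13 mitochondrial genes and the 3 muscle isoforms. The 13 that did not pass were nuclear, mostly pseudogenes and testis-type isoforms such as Cox7b2 and Cox8c. Of these, 7 had no read and 6 had at most 3 reads over the 8 libraries. Counts given below refer to the tested genes only. In bulk tissue, fewer cells of a type and less RNA per cell cannot be told apart.

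The clearest differences were in the muscle isoforms of complex IV. Cox6a2, Cox8b and Cox7a1 were at or near 0 in the controls and higher in each of the 5 Smyd3 ASO tumours, highest in responder 3 and lowest of the 5 in the non-responders. For Cox7a1 the non-responders exceeded the highest control only slightly. The common partners of the 3 isoforms differed far less between the arms.

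Cox6a2 (ENSMUSG00000030785.8, chr7:128205435-128206387, mm10, minus strand) encodes the muscle form of subunit VIa, a regulatory subunit at the dimer interface. It stood at 0.333, 0.178 and 0.168 CPM in controls 1, 2 and 3. It reached 7.02 CPM in responder 1, 16.1 CPM in responder 3, 7.18 CPM in the tumour without a mark, 1.52 CPM in non-responder 1 and 2.79 CPM in non-responder 2. The lowest treated tumour thus lay above the highest control, and both responders lay above both non-responders. The means were 0.226 ± 0.0921 CPM (SD, n = 3) and 6.93 ± 5.72 CPM (SD, n = 5), a log2 fold change of 4.90 (SE 0.89, edgeR FDR 0.0910). The control values rest on 4 to 8 reads each. On the opposite strand Cox6a2 shares 70 exon bases with Itgad, which had 20.23 counts over all libraries.

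Cox8b (ENSMUSG00000025488.9, chr7:140898945-140900446, minus strand), the muscle form of the small subunit VIII, had no read in any control. It was at 3.16 and 7.57 CPM in responders 1 and 3, 2.56 CPM in the tumour without a mark, and 0.783 and 1.05 CPM in non-responders 1 and 2. The order of the tumours was that of Cox6a2 except that the tumour without a mark lay below responder 1. Against 3 counts over the control group (0.0427 CPM), the level was at least 75.2-fold higher in the Smyd3 ASO tumours, at least 129-fold in the responders and at least 21.5-fold in the non-responders. These bounds cover counting error only, and the edgeR FDR was 0.0939.

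Cox7a1 (ENSMUSG00000074218.3, chr7:30184144-30186078, plus strand) encodes the muscle form of subunit VIIa. Levels were 0.457, 0.223 and 0.589 CPM in controls 1, 2 and 3. They were 2.72 and 5.25 CPM in responders 1 and 3, 2.02 CPM in the tumour without a mark, and 0.599 and 0.697 CPM in non-responders 1 and 2. Responders and the tumour without a mark lay apart from the controls, whereas non-responder 1 exceeded control 3 by far less than the SD of 0.185 CPM between controls. The arms differed by 2.40 on the log2 scale (SE 0.80, edgeR FDR 0.212).

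The common partners are encoded on other chromosomes, while the 3 muscle isoforms all lie on chromosome 7. Cox6a1 was at 54.7, 60.1 and 50.5 CPM in controls 1, 2 and 3, at 71.0, 66.5 and 65.0 CPM in Smyd3 ASO tumours 1, 2 and 3, and at 72.8 and 60.3 CPM in non-responders 1 and 2. Its groups did not overlap, though non-responder 2 exceeded control 2 by a fraction of the SD of 4.80 CPM between controls (log2 fold change 0.28, SE 0.10, edgeR FDR 0.223). Cox8a had means of 61.8 ± 2.48 CPM (SD, n = 3) and 68.4 ± 6.09 CPM (SD, n = 5), and its groups overlapped. Cox7a2 had 55.4 ± 7.30 CPM (SD, n = 3) and 64.6 ± 6.50 CPM (SD, n = 5), also with overlap.

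**Figure D1:**
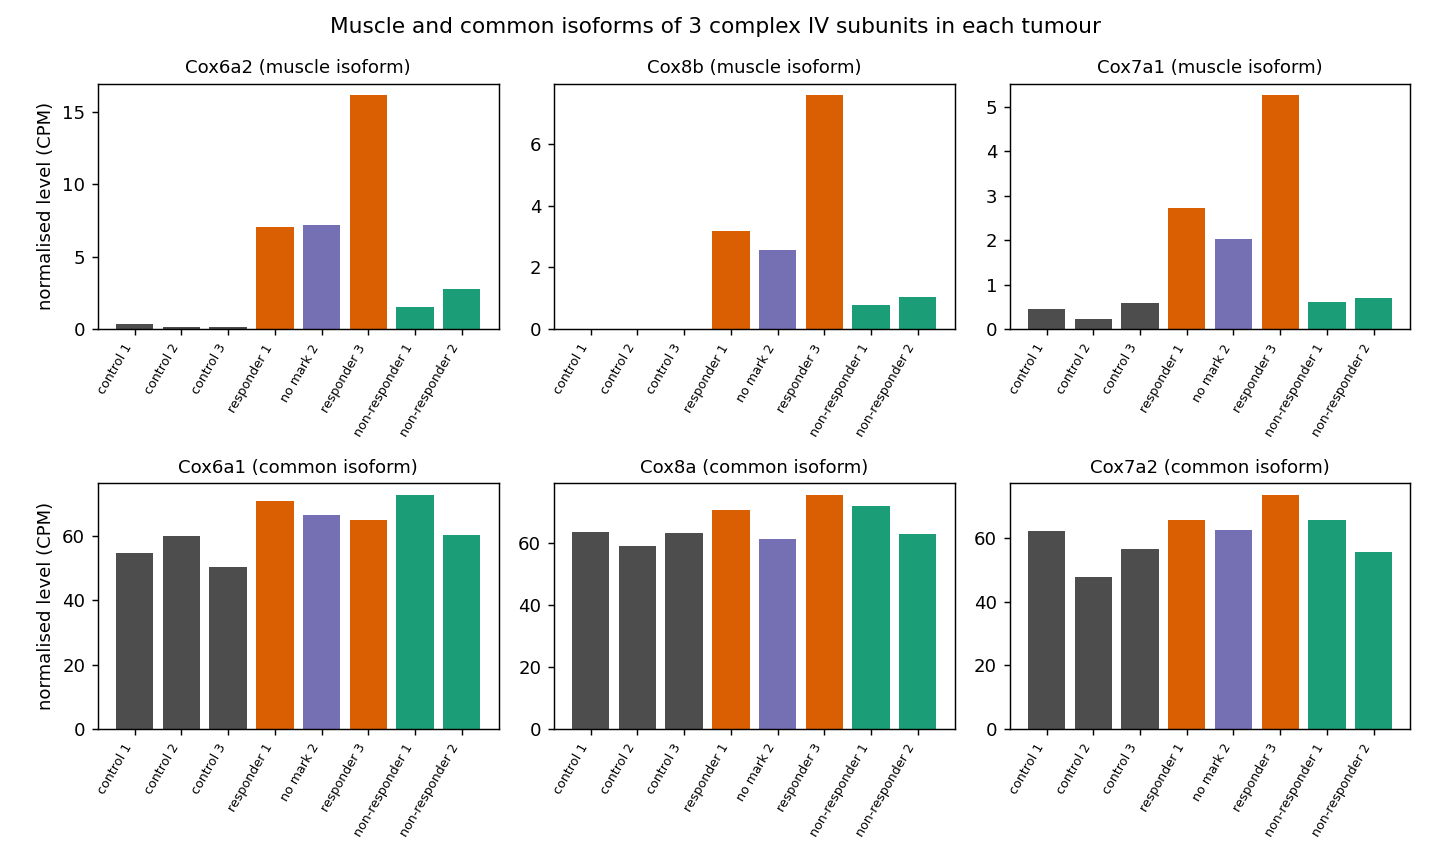
Normalised level (CPM, linear axes from 0) of the 3 muscle isoforms (top) and their common partners (bottom) in each of the 8 tumours, 1 bar per tumour. Cox8b is 0 in the 3 controls, and responder 3 has the highest bar for each muscle isoform, while the bars of the partners lie between 47.6 and 75.3 CPM.

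Put on one scale per length of the longest coding transcript, the muscle isoform made up a small share of its pair in every tumour. For Cox6a2 with Cox6a1, the share was 0.507%, 0.249% and 0.279% in controls 1, 2 and 3. It was 7.66% and 17.2% in responders 1 and 3, 8.31% in the tumour without a mark, and 1.72% and 3.74% in non-responders 1 and 2. The common form was therefore the major one throughout. For Cox8b with Cox8a, the share was 0 in the controls, 6.40%, 6.02% and 13.3% in Smyd3 ASO tumours 1, 2 and 3, and 1.64% and 2.48% in non-responders 1 and 2. For Cox7a1 with Cox7a2, controls had 0.991%, 0.632% and 1.40%, Smyd3 ASO tumours 1, 2 and 3 had 5.32%, 4.20% and 8.86%, and non-responders 1 and 2 had 1.22% and 1.68%. Here non-responder 1 fell between controls 1 and 3. Over 5 pairs, an exact two-sided permutation test of the arms gave p = 0.0357 for Cox6a2 and for Cox8b, the smallest that 56 splits allow, and 0.0714 for Cox7a1. Adjusted over the 5 pairs these became 0.0893 for Cox6a2 and Cox8b and 0.119 for Cox7a1 (permutation test). None passed 0.05, but with 56 splits a pass would have needed full separation of the arms in most of the 5 pairs. The adjusted values therefore decide little, and the shares had been planned as a description without a test.

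Markers of skeletal muscle moved with the isoforms. The summed level of 15 genes shared by muscle fibre types was 44.9 to 83.8 CPM in controls and 426 to 6671 CPM in Smyd3 ASO tumours. All 15 were higher in 5 of 5 tumours than in any control, beside 5.45% of all genes. The 10 genes of fast fibres summed to 43.7, 23.0 and 73.0 CPM in controls 1, 2 and 3. They summed to 1612, 3840 and 8520 CPM in Smyd3 ASO tumours 1, 2 and 3 and to 509 and 718 CPM in non-responders 1 and 2, without overlap between arms. Per 1000 CPM of the shared muscle genes, the 3 isoforms together gave 8.95 to 11.6 CPM in controls and 4.06 to 7.78 CPM in Smyd3 ASO tumours. The control ratios rest on 4 to 8 reads of Cox6a2, 5 to 14 of Cox7a1 and 0 of Cox8b per library. With so few reads, the lower ratio in 5 of 5 treated tumours is uncertain. The part of muscle tissue in the isoform levels was not tested.

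Lists of the other tissues that use these isoforms moved in part, though edgeR called none of their genes between the arms. Of all genes, 51.8% were above 0 between the arms, with 8.55% higher and 7% lower at an unadjusted p under 0.05. Of the heart list, the cardiac myosin Myh6 was at most 0.0388 CPM and Nppa, the atrial peptide, had no read in any tumour. The 10 heart genes summed to 71.6 to 129 CPM in controls and 59.4 to 170 CPM in Smyd3 ASO tumours. Of the 5 tested, 2 were above 0, and Myl4, an atrial and embryonic muscle myosin light chain, was higher in 5 of 5 tumours (log2 fold change 1.63, SE 0.42, edgeR FDR 0.134).

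Ucp1, the uncoupling protein that defines brown fat, was at most 0.181 CPM. The 10 brown fat genes summed to 9.50 to 19.9 CPM in controls and 24.3 to 47.8 CPM in Smyd3 ASO tumours, without overlap. Of the 7 tested, 6 were above 0, beside 51.8% of all genes, and 3 were higher at an unadjusted p under 0.05, beside 8.55%. The 3 were Fabp3 and Cpt1b, which muscle also transcribes, and Otop1, which was at most 0.523 CPM (log2 fold change 2.97, SE 1.13, edgeR FDR 0.263). All 8 adipocyte genes tested were above 0 (median log2 fold change 6.23), 6 with an unadjusted p under 0.05 and 3 without overlap between the arms. Of all genes, 8.55% were higher at such a p, and 5.45% were higher without overlap. The adipocyte sum was 45.7 to 63.1 CPM in controls. It was 85.0, 55.3 and 337 CPM in Smyd3 ASO tumours 1, 2 and 3 and 78.3 and 81.1 CPM in non-responders 1 and 2. The tumour without a mark thus lay within the range of the controls, and responder 3 lay far above all other tumours. The part of fat tissue in the isoform levels was not tested.

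Slow fibre genes summed to 695 to 831 CPM in controls and 659 to 911 CPM in Smyd3 ASO tumours, most of it from Atp2a2, a calcium pump that other cells share. Of the 7 tested, 6 were above 0 (median log2 fold change 1.16), beside 51.8% of all genes. At an unadjusted p under 0.05, 3 were higher and 1 lower, beside 8.55% and 7% of all genes. Tnnt1, the slow troponin T, was higher in 5 of 5 tumours (log2 fold change 2.39, SE 0.67, edgeR FDR 0.154), and the myosin Myh7b was lower in 5 of 5 (−2.94, SE 0.63, edgeR FDR 0.0986). Myh7, the slow myosin, was at 3.41 CPM in responder 1 and at most 0.653 CPM elsewhere.

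**Figure D2:**
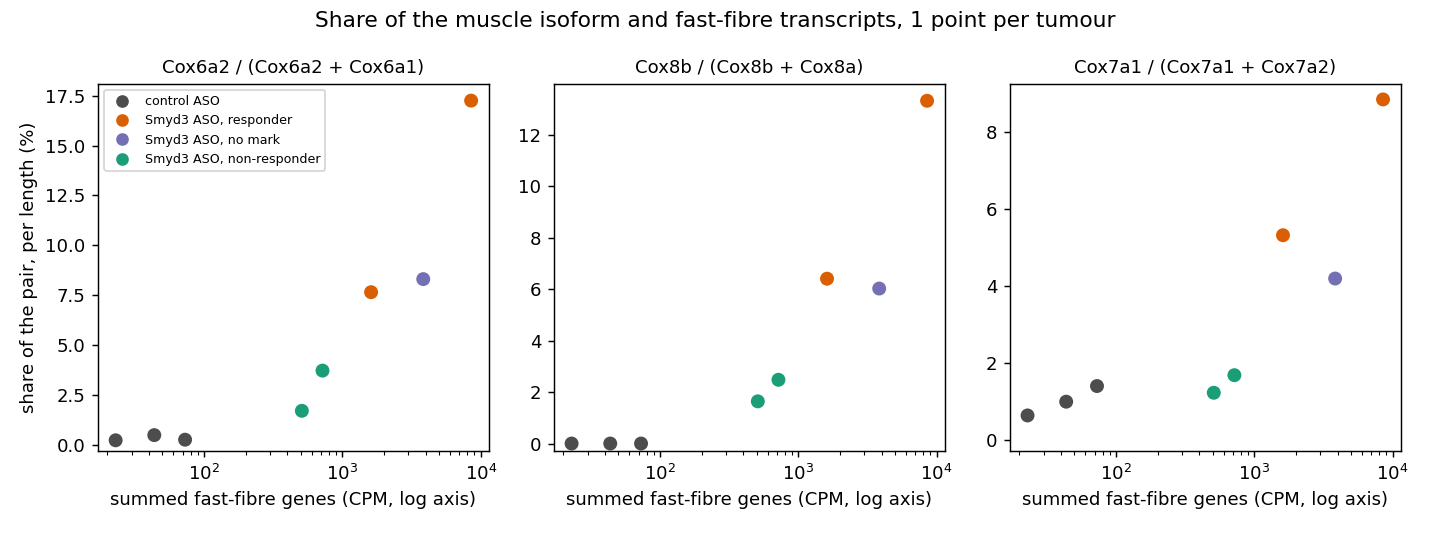
Share of the muscle isoform in its pair (%, per length) against the summed level of 10 fast-fibre genes (CPM, log axis), 1 point per tumour coloured by group. Controls lie between 23.0 and 73.0 CPM of fast-fibre genes and responder 3 at 8520 CPM, where each share is highest.

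The genes whose pattern was most like the mean of the 3 isoforms were sought among 14572 tested genes, by Pearson correlation of log2 CPM over the 8 tumours. The 10 nearest were Smpx (r = 0.999), Des (0.996), Myo18b, Klhl41, Ckmt2, Yipf7, Hrc, Hspb7, Acta1 and Mlip (0.990). Several are known components of the muscle sarcomere or its surroundings, such as desmin (Des) and skeletal alpha-actin (Acta1), and Ckmt2 is the mitochondrial creatine kinase of muscle. These tumours share arm and marker levels, so the correlations are a description.

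Across the whole set, edgeR called 0 of 97 members between the arms, beside 0% of the 16911 genes (lowest FDR over all genes 0.0656). At an unadjusted p under 0.05, 21 members were higher and 1 lower, beside 8.55% and 7% of all genes. DESeq2 called 5 of the 97 members (Cox6a2, Cox7a1, Cox8b, Ndufv3 and mt-Nd4), a smaller part than the 6.26% of all genes, and limma voom called 0. Without non-responder 1, the treated tumour of lowest muscle transcripts, edgeR called Cox6a2 (FDR 0.0246) and Cox8b (FDR 0.0455). The count over all genes was then 249. Without responder 3 the log2 fold changes fell to 4.31 for Cox6a2 and 1.81 for Cox7a1.

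The common nuclear subunits differed little and mostly in one direction. Their median log2 fold change between the arms was 0.17, with 73 of 81 above 0, beside a median of 0.01 and 51.8% of all genes. Unadjusted p fell under 0.05 in 15 higher and 1 lower gene, and the arms did not overlap in 9 higher genes and 1 lower gene, beside 5.45% and 5.14% of all genes. The medians by complex were 0.15 in complex I (37 genes), 0.12 in II (4 genes), 0.15 in III (8 genes), 0.19 in IV (15 genes) and 0.21 in V (17 genes). These genes were measured in the same libraries and are not independent of each other.

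Summed over the 94 nuclear genes, levels were 7153, 5944 and 6422 CPM in controls 1, 2 and 3. They were 7512, 6615 and 7629 CPM in Smyd3 ASO tumours 1, 2 and 3, and 7732 and 6387 CPM in non-responders 1 and 2. The arms overlapped, since non-responder 2, and the tumour without a mark too, lay below control 1. Non-responder 1, with the fewest muscle isoform reads of the treated tumours, had the highest sum. Control 2 was the lowest tumour in 39 of the 81 genes, and responder 1, responder 3 and non-responder 1 were the highest in 21, 22 and 22. Control 2 also had the highest fibroblast (13469 CPM) and hypoxia (9699 CPM) sums. Fibroblast genes summed to 7702 to 13469 CPM in controls and 5044 to 6512 CPM in Smyd3 ASO tumours, without overlap. The part of these cells in the subunit levels was not tested.

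**Figure D3:**
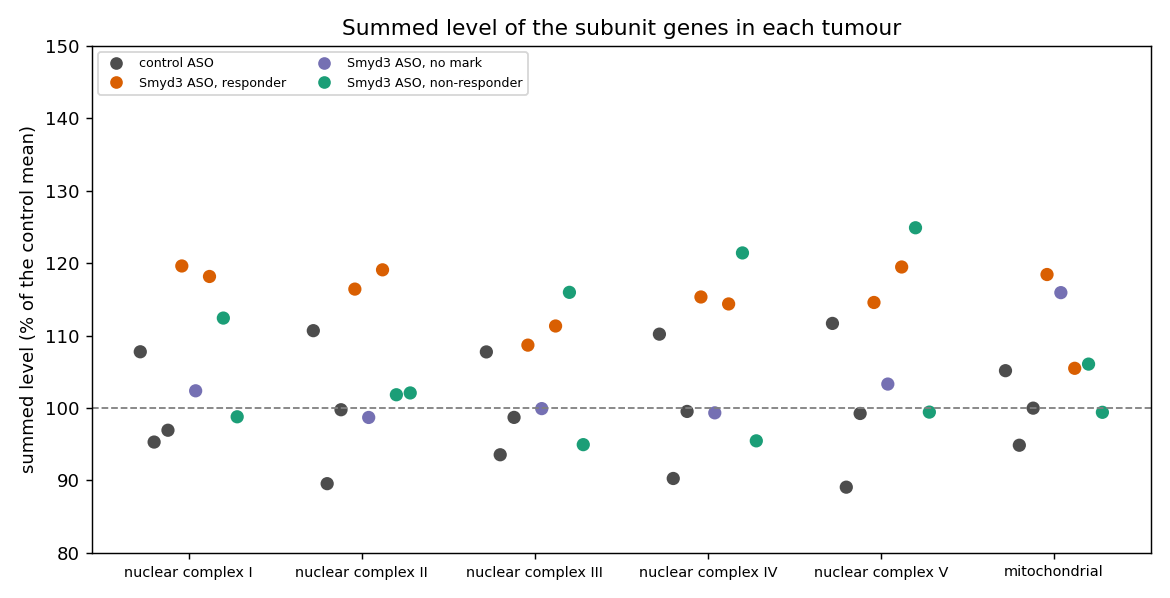
Summed level of the subunit genes in each tumour as a percentage of the control mean (dashed line at 100), for the nuclear genes of each complex and for the mitochondrial genes, 1 point per tumour. Control and treated points overlap in each column, and in each of the 5 nuclear columns the points of non-responder 2 and of the tumour without a mark lie within the range of the controls.

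In complex I, which takes electrons from NADH, 35 of 37 genes were above 0, beside 51.8% of all genes, and Ndufv3 and Ndufa7 (−0.04, edgeR FDR 0.890) below. Ndufv3 had the smallest p. This accessory subunit of the NADH-binding module was at 72.0, 79.1 and 63.0 CPM in controls 1, 2 and 3, at 59.9, 49.4 and 50.6 CPM in Smyd3 ASO tumours 1, 2 and 3, and at 55.4 and 55.5 CPM in non-responders 1 and 2. Every treated tumour lay below every control, and responders and non-responders overlapped. The log2 fold change was −0.40 (SE 0.10, edgeR FDR 0.136). Ndufs8, an iron-sulfur subunit of the arm that hands electrons to ubiquinone, was at 30.8, 29.4 and 29.9 CPM in controls 1, 2 and 3. It reached 36.5, 32.3 and 42.5 CPM in Smyd3 ASO tumours 1, 2 and 3 and 40.9 and 36.2 CPM in non-responders 1 and 2, higher in 5 of 5 (log2 fold change 0.33, SE 0.11, edgeR FDR 0.214). Ndufb4 and the processed copy Ndufb4c are identical over 390 bases and held 1879.3 and 4020.7 counts, so the split between them is uncertain.

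The 4 subunits of complex II, succinate dehydrogenase, had fold changes of 0.01 to 0.15 on the log2 scale and overlapped between the arms in all 4 cases. The flavoprotein Sdha was at 136, 136 and 146 CPM in controls 1, 2 and 3, and at 171, 142 and 176 CPM in Smyd3 ASO tumours 1, 2 and 3. Non-responders 1 and 2 had 138 and 147 CPM, so the responders stood above all other tumours (log2 fold change between the arms 0.15, SE 0.11, edgeR FDR 0.539). Sdhb, the iron-sulfur subunit, gave 0.13 (SE 0.13, edgeR FDR 0.687).

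In complex III, which passes electrons from ubiquinol to cytochrome c, Uqcrb and Uqcrfs1 had the smallest p. Uqcrb, the ubiquinone-binding accessory subunit, was at 46.2, 57.4 and 50.3 CPM in controls 1, 2 and 3, at 78.7, 66.0 and 73.1 CPM in Smyd3 ASO tumours 1, 2 and 3, and at 59.5 and 52.7 CPM in non-responders 1 and 2. Non-responder 2 lay among the controls (log2 fold change 0.36, SE 0.14, edgeR FDR 0.279). Uqcrfs1, the Rieske iron-sulfur protein, stood at 46.1, 47.1 and 47.7 CPM in controls and at 64.1, 49.5 and 65.7 CPM in Smyd3 ASO tumours 1, 2 and 3. Non-responders 1 and 2 had 62.2 and 49.1 CPM. Its arms did not overlap (log2 fold change 0.31, SE 0.12, edgeR FDR 0.283).

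In complex IV the smallest p after Cox6a1 was that of Cox5a, a subunit on the matrix side, with 45.2 ± 7.86 CPM (SD, n = 3) and 59.9 ± 8.02 CPM (SD, n = 5) and an overlap between the arms (log2 fold change 0.41, SE 0.15, edgeR FDR 0.244). In complex V, ATP synthase, the pair was Atp5j, coupling factor 6 of the stalk, and Atp5g1, which encodes the c subunit of the rotor ring. Atp5j had 70.2 ± 4.39 CPM (SD, n = 3) and 85.0 ± 6.94 CPM (SD, n = 5), with control 1 and non-responder 2 both at 74.7 CPM. Its log2 fold change was 0.28 (SE 0.10, edgeR FDR 0.230), and Atp5j shares 397 exon bases with Gabpa on the opposite strand. Atp5g1 was higher in 5 of 5 treated tumours, with 84.3 ± 8.45 CPM (SD, n = 3) and 108 ± 15.8 CPM (SD, n = 5) and a log2 fold change of 0.36 (SE 0.14, edgeR FDR 0.261). Its non-responder 2 exceeded control 1, the highest control, by far less than the SD of 8.45 CPM between controls. Per kilobase of transcript, Atp5b, the catalytic beta subunit, was the most abundant nuclear member, with a control level of 340 CPM per kilobase, and Cox6b2, a testis form of complex IV, the least, with 0.730.

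**Figure D4:**
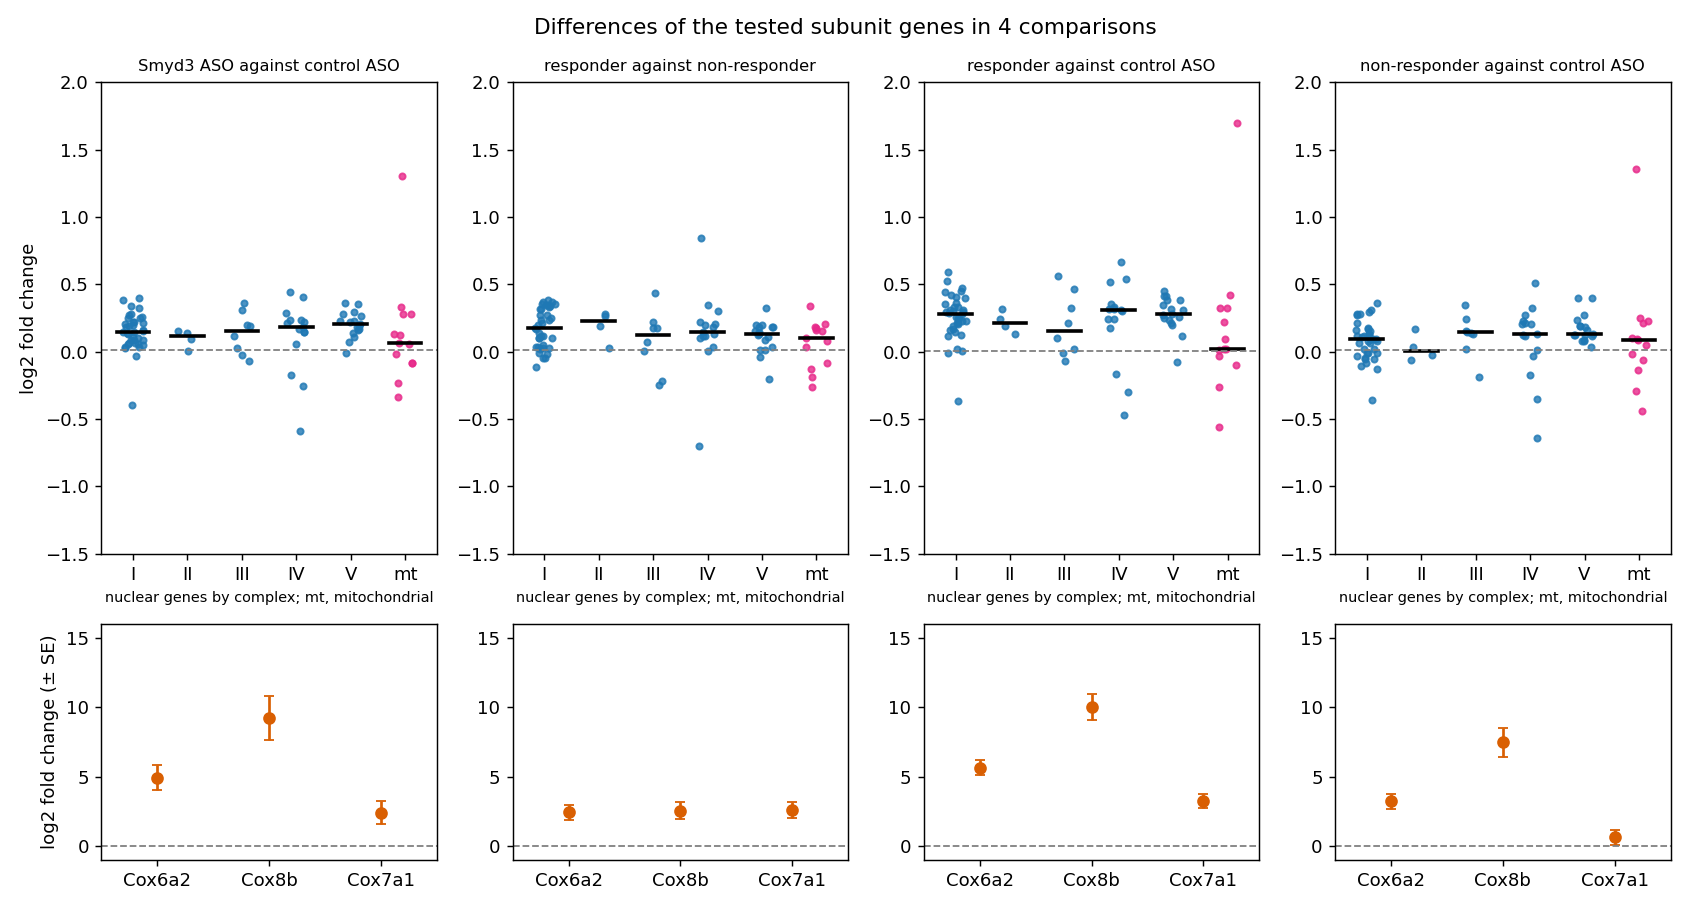
Log2 fold change of each tested nuclear gene by complex and of each mitochondrial gene (mt) in 4 comparisons (top, black bars are medians, the dashed line is the median of all genes), and of the 3 muscle isoforms with their SE (bottom). In the comparison of the arms 73 of 81 nuclear points lie above 0, while the fitted values of Cox8b against controls rest on 0 control reads and depend on the prior count.

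A pair of complex IV genes linked to low oxygen was examined with its common partners. Ndufa4l2, a hypoxia-induced paralog of the complex IV subunit Ndufa4, was at 124, 95.3 and 135 CPM in controls 1, 2 and 3, and at 104, 77.7 and 66.8 CPM in Smyd3 ASO tumours 1, 2 and 3. Non-responder 1 had the highest value of all, 211 CPM, and non-responder 2 the lowest, 65.5 CPM. The arms overlapped (log2 fold change −0.17, SE 0.39, edgeR FDR 0.872). Its share of the pair with Ndufa4, per length, was 35.5 ± 5.01% (SD, n = 3) in controls and 24.7 ± 7.50% (SD, n = 5) in treated tumours (exact permutation p = 0.107, 0.134 adjusted over the 5 pairs). Ndufa4 itself had 143 ± 40.2 CPM (SD, n = 3) and 195 ± 30.4 CPM (SD, n = 5), with overlap. The 12 hypoxia genes summed to 6584 to 9699 CPM in controls and 4022 to 7049 CPM in treated tumours, with non-responder 1 the highest of these. All 12 were below 0 between the arms (median log2 fold change −0.92), and edgeR called none. At an unadjusted p under 0.05, 10 were lower, beside 7% of all genes, and 5 were lower without overlap, beside 5.14%. The part of the hypoxia genes in Ndufa4l2 was not tested. Cox4i2, the form of subunit IV made in lung and under hypoxia, was at 0.998 to 2.36 CPM in controls and 0.738 to 1.46 CPM in treated tumours, at most 1.56% of its pair with Cox4i1. Cox4i1 overlapped between the arms (167 ± 17.2 and 185 ± 22.1 CPM, SD, n = 3 and 5).

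The 13 mitochondrial protein genes gave no call between the arms in edgeR. Their median log2 fold change was 0.06, and 8 of 13 were above 0, beside 51.8% of all genes. Unadjusted p fell under 0.05 in 3 higher genes, beside 8.55% of all genes. The 3 were mt-Nd4, mt-Nd2 and mt-Nd3, all core subunits of the membrane arm of complex I. The 13 genes took 1.89% to 2.55% of the counts of a library. Per kilobase in these polyA libraries, mt-Co1, the catalytic subunit of complex IV, was read most in controls (6822 CPM per kilobase) and mt-Nd6 least (19.5). How well polyA selection captured each of the 13 transcripts was not tested. For several of them the listed value was only a small part of the reads, because the count table also holds nuclear genes that copy stretches of the mitochondrial genome.

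Reads were divided with copies that are 99% or more identical for 7 of the 13 genes. The copy of mt-Co2, Gm28661, is identical over 681 bases and held 747970.4 counts against 35550 at mt-Co2. The copies of mt-Atp6 (Gm10925, 666873.2 against 29700.8 counts), mt-Co3 (Gm28437, 613890.8 against 48924.2), mt-Nd4l (Gm10222, 55270.9 against 8994.1) and mt-Nd3 (Gm28438, 46037.4 against 3347.6) likewise held most of the reads. For these 5 genes the copy took 82.1% to 97.6% of the joint reads over the 8 libraries. At mt-Co1 the copy took 5.02% to 8.37%, and at mt-Nd4 at most 0.353%. Such values of single genes are therefore uncertain, and the sum of gene and copy was used as an alternative chosen after the data had been seen.

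mt-Nd3, a small complex I subunit, is an example. Alone it was at 6.57, 12.9 and 7.57 CPM in controls 1, 2 and 3, at 29.0, 6.95 and 29.5 CPM in Smyd3 ASO tumours 1, 2 and 3, and at 35.8 and 10.3 CPM in non-responders 1 and 2. The tumour without a mark and non-responder 2 lay among the controls, and the log2 fold change was 1.31 (SE 0.56, edgeR FDR 0.308). With the copy added, the levels were 274, 205 and 205 CPM in controls 1, 2 and 3, 291, 252 and 294 CPM in Smyd3 ASO tumours 1, 2 and 3, and 268 and 250 CPM in non-responders 1 and 2. The arms still overlapped through control 1, and the fold change fell to 0.25 on the log2 scale.

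mt-Nd4, which is hardly touched by copies, was at 1952, 1667 and 1589.7 CPM in controls 1, 2 and 3. It was at 2260.2, 2263 and 2378 CPM in Smyd3 ASO tumours 1, 2 and 3 and at 1990.6 and 2028 CPM in non-responders 1 and 2. All 5 treated tumours lay above all controls, and both responders above both non-responders (log2 fold change 0.33, SE 0.12, edgeR FDR 0.231). mt-Nd2 gave 0.28 (SE 0.11, edgeR FDR 0.289), with non-responder 2 just below control 1. With copies added, 11 of the 13 genes were above 0 with a median of 0.21, between −0.34 for mt-Nd6 and 0.33 for mt-Nd4, and 2 had an unadjusted p under 0.05. mt-Co3 turned from −0.23 to 0.25 and its arms then did not overlap, mt-Co2 turned from −0.08 to 0.16 and mt-Atp6 from −0.09 to 0.21, and edgeR called none. The summed level with copies was 31561 ± 1797 CPM (SD, n = 3) in controls and 34987 ± 2385 CPM (SD, n = 5) in treated tumours, with non-responder 2 below control 1.

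**Figure D5:**
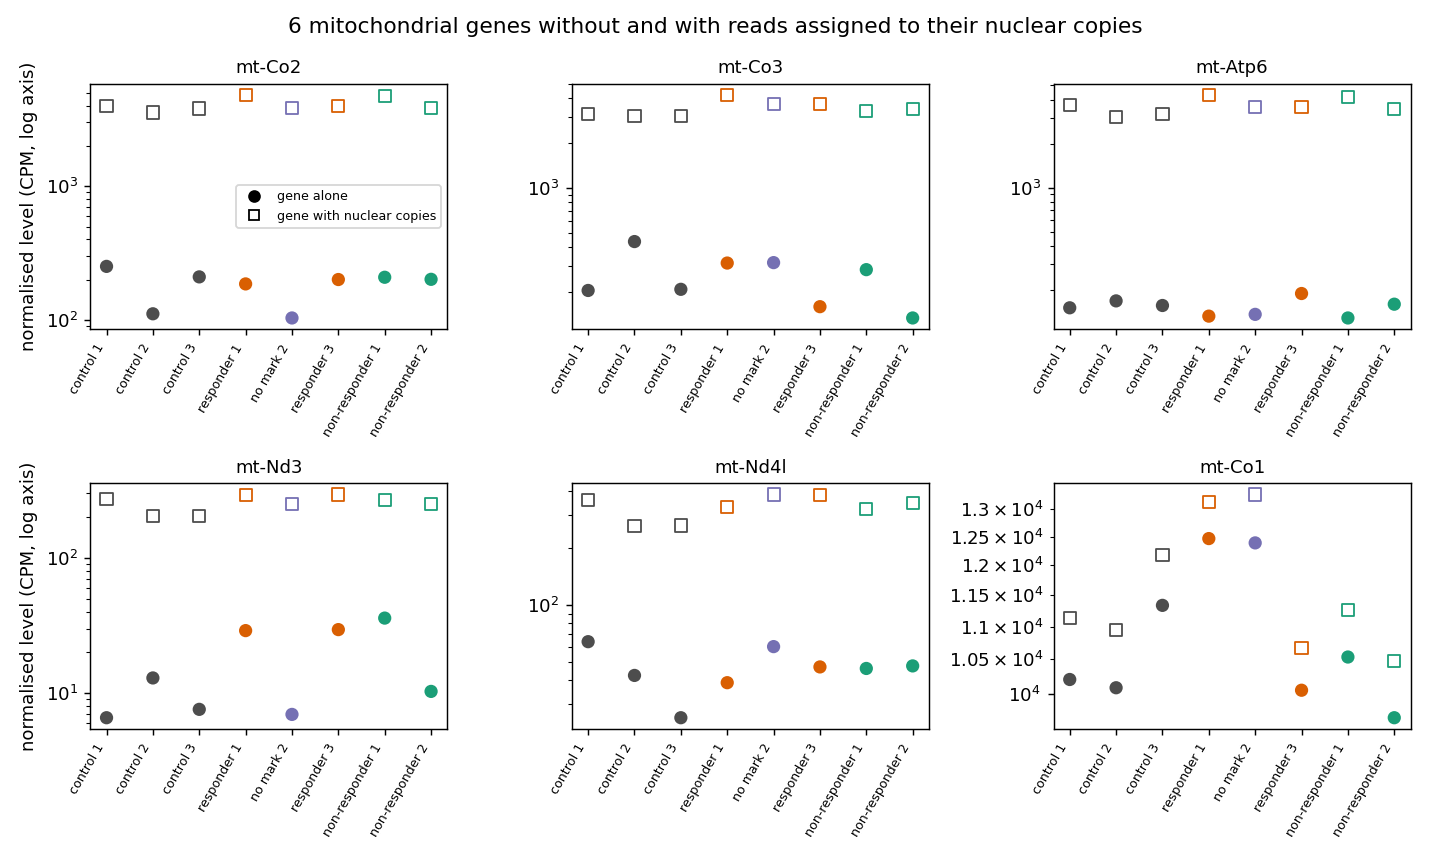
Normalised level (CPM, log axes that differ between panels) of 6 mitochondrial genes in each tumour, for the gene alone (filled circles) and with the reads of its nuclear copies (open squares). The squares of mt-Nd3 lie between 205 and 294 CPM while its circles range from 6.57 to 35.8 CPM, and at mt-Co1 both lie close together.

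Responders were then set against the controls and against the non-responders, to see whether the outcome mark goes with the subunits. With 2 tumours in each marked group, these comparisons borrow the spread of all 8 libraries. Against the controls, edgeR called 3 of the 97 members in the responders, all higher, beside 1.66% of all genes (280 of 16911, with 1.38% higher and 0.272% lower). They were the 3 muscle isoforms: Cox6a2 with a log2 fold change of 5.64 (SE 0.57, edgeR FDR 0.0187), Cox8b with an edgeR FDR of 0.0245 and Cox7a1 with 3.22 (SE 0.51, edgeR FDR 0.0355). Limma voom called 2 of them (Cox6a2 and Cox8b), beside 0.455% of all genes. DESeq2 called 6 of the 97 members, adding Ndufb1-ps, Uqcrb and mt-Nd3, a smaller part than the 6.82% of all genes. Most reads of mt-Nd3 were assigned to its copy. With the copy added, its edgeR log2 fold change in this comparison fell from 1.69 to 0.36 (edgeR FDR 0.327). Both responders lay apart from all 3 controls in 54 higher and 2 lower members, beside 18.8% and 17% of all genes.

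These calls depended on which libraries were included. Without control 1 none was called (edgeR FDR 0.104 for Cox6a2, 0.109 for Cox8b and 0.153 for Cox7a1), nor without control 3 (0.0753, 0.0753 and 0.0958). Cox6a2 was the only one called without responder 3 (FDR 0.0401), non-responder 1 (0.0320) or non-responder 2 (0.0325), and without control 2 Cox7a1 was lost (edgeR FDR 0.0640). The fold changes stayed between 4.90 and 6.11 on the log2 scale for Cox6a2 and between 2.65 and 3.61 for Cox7a1 over the 8 omissions. The count over all genes was 0 without control 1, 6 without control 3, 36 without responder 3, 78 without control 2, and 171 and 134 without non-responders 1 and 2. In the same comparison the 15 shared muscle genes were all called, and 8 of the 10 fast-fibre genes, beside 1.66% of all genes. The 10 keratinocyte genes summed to 25061 and 21389 CPM in responders 1 and 3 against 32211 to 38701 CPM in controls. The 10 T and NK cell genes summed to 98.96 and 219 CPM against 25.7 to 56.5 CPM. The 10 adipocyte genes summed to 85.0 and 337 CPM against 45.7 to 63.1 CPM. The part of these cells in the isoform calls was not tested.

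Among the common nuclear subunits edgeR called no gene in responders against controls, while DESeq2 called Ndufb1-ps and Uqcrb, as given above. The median was 0.28 on the log2 scale with 73 of 81 above 0, beside 0.00297 and 50.4% of all genes. Unadjusted p fell under 0.05 in 22 higher and 1 lower gene, beside 9.62% and 6.99% of all genes. Uqcrb had the smallest p, with 75.9 ± 3.96 CPM (SD, n = 2) in responders and 51.3 ± 5.67 CPM (SD, n = 3) in controls (log2 fold change 0.56, SE 0.14, edgeR FDR 0.101). In complex I, Ndufb1-ps (0.59, edgeR FDR 0.113) and Ndufs4, an accessory subunit of the matrix arm (0.53, edgeR FDR 0.186), had the smallest p. Ndufb1-ps, annotated as a long non-coding RNA, shares 147 exon bases with Cpsf2 on the opposite strand. In complex II, Sdha gave 0.32 (edgeR FDR 0.219). In complex IV, Cox5a gave 0.54 (edgeR FDR 0.213) and Cox7c, a small membrane subunit, 0.35 (edgeR FDR 0.219). In complex V, Atp5j and Atp5j2, the latter a subunit of the membrane part, both gave 0.38 (edgeR FDR 0.177 and 0.249). The mitochondrial genes had a median of 0.02 alone and 0.25 with copies.

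Between responders and non-responders edgeR called 0 members, beside 0% of all genes (lowest FDR over all genes 0.314). At an unadjusted p under 0.05, 8 members were higher and 0 lower, beside 4.74% and 3.75% of all genes. The muscle isoforms were higher in both responders than in both non-responders, by 2.42 (SE 0.55) for Cox6a2, 2.55 (SE 0.61) for Cox8b and 2.61 (SE 0.58) for Cox7a1 on the log2 scale, each with an edgeR FDR of 0.505 to 0.510. Without responder 3 these fell to 1.70, 1.79 and 2.06, and over the omission of each library they ranged up to 2.92, 3.05 and 3.01. DESeq2 called Cox6a2 and Cox7a1, beside 1.41% of all genes, and limma voom called 0. The values of all 4 tumours did not overlap in 40 higher and 3 lower members, beside 20.3% and 18.9% of all genes.

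The other 5 of the 8 were nuclear, 4 of them in complex I. Ndufc2, a small membrane-arm subunit, was at 39.3 and 37.5 CPM in responders 1 and 3 and at 30.1 and 28.6 CPM in non-responders 1 and 2 (log2 difference 0.39, SE 0.14, edgeR FDR 0.544). Ndufb7, another membrane-arm subunit, had 50.9 and 52.8 CPM against 41.3 and 40.4 CPM (0.34, SE 0.13, edgeR FDR 0.558). In complex III, Uqcrb had 78.7 and 73.1 CPM against 59.5 and 52.7 CPM (0.44, SE 0.15, edgeR FDR 0.543). The nuclear median was 0.15 with 71 of 81 above 0, beside 0.01 and 51.6% of all genes. It was 0.29 without non-responder 1 and 0.04 without non-responder 2, so the choice of non-responder moved it by more than 1.5 times. The mitochondrial median was 0.10, and −0.04 without non-responder 2.

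Between non-responders and controls edgeR called 0 members, beside 0% of all genes (lowest FDR over all genes 0.0779). At an unadjusted p under 0.05, 4 members were higher and 1 lower, beside 5.1% and 4.14% of all genes. Cox6a2 was higher by 3.22 (SE 0.55, edgeR FDR 0.280) and Cox7a1 by 0.61 (SE 0.54, edgeR FDR 0.770) on the log2 scale. Of the common subunits, Ndufs8 was at 0.36 (SE 0.13, edgeR FDR 0.494) and Ndufv3 at −0.36 (SE 0.14, edgeR FDR 0.516), as both non-responders lay outside the range of the controls. Cox7a2l was at 228, 188 and 209 CPM in controls 1, 2 and 3 and at 149 and 178 CPM in non-responders 1 and 2 (−0.35, SE 0.16, edgeR FDR 0.554). DESeq2 called Cox6a2 and Cox8b, beside 2.13% of all genes, and limma voom called 0. The nuclear median was 0.12 with 63 of 81 above 0, beside 51.1% of all genes, and −0.0047 without non-responder 1 and 0.24 without non-responder 2. This comparison shares its controls with that of the responders.

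Other genes of mitochondrial energy supply were read from 6 lists. Energy export was the one with calls by edgeR: of 11 tested genes, Ckm and Ckmt2, the muscle creatine kinases of the cytosol and of mitochondria, were higher in responders against controls (edgeR FDR 0.0252 and 0.0160). Of all genes, 1.38% were called higher there. Ckmt2 was at 0.0416 CPM in control 1 and 0 in controls 2 and 3, at 5.72 and 13.5 CPM in responders 1 and 3, at 7.57 CPM in the tumour without a mark, and at 0.691 and 1.09 CPM in non-responders 1 and 2. It ordered the groups as the muscle isoforms did. Ckmt1, the mitochondrial creatine kinase of other tissues, ranged from 34.6 to 252 CPM in controls and from 102 to 172 CPM in treated tumours, with overlap.

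The other 5 lists had 0 calls by edgeR in each of the 4 comparisons. Of all genes, 51.8% were above 0 between the arms, with 8.55% higher and 7% lower at an unadjusted p under 0.05. Between the arms 17 of 20 genes of the mitochondrial ribosome were above 0 (median 0.17), with 4 higher and 0 lower at an unadjusted p under 0.05. Its summed level was 578 to 644 CPM in controls and 649 to 762 CPM in treated tumours, higher in 5 of 5. The 2 genes of smallest p encode proteins of the large subunit, Mrpl11 (log2 fold change 0.38, edgeR FDR 0.148) and Mrpl1 (0.39, edgeR FDR 0.149). The tricarboxylic acid cycle had a median of 0.15 with 14 of 16 above 0 and 1 higher gene, Sucla2, a subunit of succinate-CoA ligase (0.30, edgeR FDR 0.263), followed by the malate dehydrogenase Mdh2 (0.29, edgeR FDR 0.333). In responders against controls its smallest p was that of the fumarase Fh1 (0.58, edgeR FDR 0.0820).

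Assembly factors had a median of 0.07 with 33 of 45 above 0, beside 51.8% of all genes. At an unadjusted p under 0.05, 1 gene was higher and 1 lower, a smaller part than the 8.55% and 7% of all genes. The higher one was Tmem70, which helps assemble ATP synthase (0.30, edgeR FDR 0.230), and the lower one Pet117, an assembly factor of complex IV, had at most 0.968 CPM and 0 in control 1 and in 4 of the 5 treated tumours. Genes of biogenesis and mitochondrial transcription had a median of 0.07 between the arms with 13 of 21 above 0, 2 higher and 1 lower. For responders against non-responders their median was −0.13, with 14 of 21 below 0, while 51.6% of all genes were above 0. At an unadjusted p under 0.05, 0 of the list were higher and 2 lower, beside 4.74% and 3.75% of all genes. The 2 were Polrmt (−0.48), the mitochondrial RNA polymerase, and Pprc1 (−0.46). For responders against controls the median of the list was −0.03, with 12 of 21 below 0, while 50.4% of all genes were above 0. Between the arms the smallest p were those of Esrrg, a nuclear receptor of oxidative muscle (at most 0.852 CPM, edgeR FDR 0.196), and Polg, the mitochondrial DNA polymerase (−0.32, edgeR FDR 0.209). The electron carriers had a median of 0.14 with 8 of 8 above 0 and 1 higher gene, Etfdh, which feeds electrons from fat oxidation to ubiquinone (0.20, edgeR FDR 0.313), followed by Etfa (0.21, edgeR FDR 0.405).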

How the data were processed

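Bulk polyA RNA of 8 tumours was analysed, in the groups given by the sample titles. The values are expected counts as RSEM gives them, which the authors deposited unscaled with each tumour in a column. Per the submitters' processing notes, bcl2fastq 2.17, cutadapt 1.18, STAR 2.7.0f and RSEM 1.3.0 were used with the mouse build mm10, and the annotation is not given in the sources used here. Per the labels' protocols, libraries were made with a TruSeq stranded kit, and whether counting used strand is not stated. All 55450 identifiers were found in GENCODE M21, which gave symbols, lengths and coordinates. Expected counts were rounded (2929 to 3179 values per column were more than 1e-06 from a whole number).

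Genes with 0.424 CPM in 2 libraries and 15 reads in total were kept (16911 genes, 99.93% of reads). They were TMM-normalised and tested in R 4.3.3 with edgeR 4.0.16 (robust quasi-likelihood, two-sided, Benjamini-Hochberg FDR threshold 0.05). Treatment was the only term for the arms, and the other 3 comparisons came from a model of 4 groups. The adjustment ran over all tested genes. DESeq2 1.42.0, limma voom 3.58.1, RLE size factors, no filter, omission of each library and a replicate block were alternatives. On simulated counts the edgeR fits recovered 12% to 48% of 100 genes changed 2-fold and 66% to 88% of 100 changed 4-fold. Recovery was lowest for responders against non-responders. Each comparison gave 8 to 15 false calls, a larger part of its calls than the FDR threshold of 0.05. A count of 0 called therefore does not exclude changes of 2-fold or 4-fold. The changed genes were drawn above a floor of reads that Cox7a1 and Cox8b do not reach, so recovery at such low counts was not simulated. Library totals were 22103853 to 27258700, so 1 CPM was at least 22.1 reads. Counting intervals and bounds cover counting error only.

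Copies were sought with blastn 2.17.0 against GENCODE transcripts, and reads of copies at least 99% identical were added in an alternative. Named genes are the isoforms and partners, all calls, and the 2 genes of smallest p per complex and pathway list, for mitochondrial genes 3. Features outside this rule (Ndufa7, Ndufb4 with its copy, single marker genes, the extremes of abundance, mt-Co2, mt-Co3, mt-Atp6, mt-Nd6 and Ckmt1) were named after their values were seen. Members and lists were chosen with earlier results of these data known. The 28 pairs of libraries all differed by more than sampling noise (chi-square per degree of freedom 24.3 to 179). Deviations from the arm means correlated at −0.034, 0.00015 and 0.076 between tumours of the same replicate number. Tumours of different numbers gave −0.150 to 0.137, so a pairing was not seen. With 3 tumours per arm these values cannot exclude a pairing or a shared batch.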

Additional observations from a re-analysis of the deposited data

Results flagged for a closer look

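Over the 5 Smyd3 ASO tumours, 46 series of values were tested for a tumour far from the others, and 3 stood out by Dixon's ratio, whose critical value for 5 samples is 0.71. Chance gives about 1 series in 20. Ndufa4l2 was at 211.4 CPM in non-responder 1, with a gap of 0.7379 of the range to the next tumour. Uqcr11, a small subunit of complex III, was at 57.35 CPM in the same tumour (0.8071 of the range), above the 32.3 to 41.9 CPM of the controls. mt-Co2 was at 103.8 CPM in the tumour without a mark (0.7851 of the range), where 93.7% to 97.3% of the joint reads were assigned to its copy over the 8 libraries. With the copy added, this tumour had 3825 CPM, the lowest of the 5 treated tumours and within the 3548 to 3990 CPM of the controls. The cause of these 3 values was not tested.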

How the results depend on the processing

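Except without the filter, where more were tested, the counts below are out of 97 members and at most 16911 genes. Between the arms, the count of members called was 5 with DESeq2 and 2 with the mean of the 3 Smyd3 ASO groups, and 0 to 2 when each library was left out. The count of all genes called was 1053 with DESeq2, 52 without the filter, 96 with the mean of the 3 groups and 0 to 249 with a library left out. Responders against non-responders gave 2 members and 225 genes with DESeq2, 7 genes without the filter and 0 to 22 genes with a library left out. Responders against controls gave 6 members and 1153 genes with DESeq2, 77 genes with limma voom, 499 without the filter, and 0 to 3 members and 0 to 298 genes with a library left out. Non-responders against controls gave 2 members and 339 genes with DESeq2 and 2 members and 32 genes without the filter. With copies added, an alternative chosen after seeing the data, the mitochondrial median was 0.2071 between the arms and 0.2516 for responders against controls.

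With a library left out, the nuclear median ranged from 0.0379 to 0.2864 for responders against non-responders and from −0.0047 to 0.2376 for non-responders against controls. The mitochondrial median ranged from −0.0395 to 0.1325 for responders against non-responders and from 0.0083 to 0.2671 for responders against controls. The following log2 values of single genes changed sign. For responders against non-responders, Ndufa4 was −0.0118 with RLE factors and with DESeq2 and −0.0047 without the filter, and ranged from −0.2143 to 0.2418 with a library left out, Cox6a1 from −0.107 to 0.1723 and Ndufa4l2 from −1.3186 to 0.3804. For non-responders against controls, Cox4i1 ranged from −0.0675 to 0.1018, Ndufa4l2 from −0.8524 to 0.8354 and Sdha from −0.0093 to 0.077. The cause was not tested.

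The replicate block used the 6 numbered tumours and called 2 of 97 members (Cox6a2 and Cox7a1), beside 249 of at most 16911 genes. The same 6 tumours without the block gave 2 of 97 members (Cox6a2 and Cox8b), beside 285 of at most 16911 genes. Whether same-numbered tumours share more than a number is not known, and their correlations were at most 0.076. Over all settings, 1161 values of single genes kept direction and side of the threshold, 22 passed it newly, 14 no longer passed it and 13 reversed. Depth limits the isoforms in controls, where Cox6a2 had 4 to 8 reads and Cox8b 0 in each library.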
